A study of Mus musculus with 6 samples.

Results

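The 10 genes described here are those with which absorptive cells of the small intestine take up dietary lipid, pack it into lipoproteins and build their brush border: Apoa1, Apoa4, Apob, Apoc3, Fabp1, Fabp2, Mttp, Prap1, Vil1 and Cdh17. They were chosen by symbol and are 10 of the 17256 genes in the expression table. RNA was sequenced from antrum epithelium (the antrum is the end of the stomach next to the duodenum) of C57BL/6 mice in which MNNG, an alkylating agent, and a drug spelled Ranitine in the labels had been given for 20 weeks to induce atrophic gastritis. All 6 libraries share that induction: 3 came from mice then given vehicle for 2 weeks and 3 from mice given PEEPA-P5, known here only by that code name, for 2 weeks by gavage. Nothing in the labels ties a library to a mouse of its own; the p-values below therefore reflect only how far libraries scatter, and that scatter may be technical. No library comes from mice without induced gastritis, and the sources used here give neither age nor sex.

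In the intestine, absorbed fatty acids are bound by the small cytosolic carriers Fabp1 and Fabp2 and re-esterified to triglyceride. The microsomal transfer protein Mttp then loads that lipid onto apolipoprotein B, encoded by Apob, and the particle is secreted as a chylomicron that also carries the products of Apoa1, Apoa4 and Apoc3. Villin, encoded by Vil1, bundles the actin of microvilli, and Cdh17 encodes an intestinal cadherin of the lateral membrane. Prap1 encodes a secreted protein of intestinal epithelium that binds lipoprotein lipid. Apoa1, Apob, Apoc3, Fabp1 and Mttp are also liver genes, and in gastric intestinal metaplasia genes of this kind are known to appear in the stomach.

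Total counts per library ran from 16388844 to 16903545, and the 10 genes together took 0.0501% to 0.0776% of them. Levels are given as CPM, counts scaled to a fixed library total, with library sizes adjusted by TMM factors, or, where different genes are compared with each other, as the deposited TPM, which are per length of transcript. PEEPA-P5 3 stood apart in its non-epithelial genes. The summed CPM of 10 fibroblast genes was 38.7 there against 246 to 548 in the other five libraries, and that of 10 endothelial genes was 11.9 against 58.1 to 128. Since these are bulk samples, fewer cells of a type and less RNA per cell cannot be told apart.

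Fabp2 and Vil1 were abundant in every library, Apoa1 and Apoa4 were abundant in some libraries and close to absent in others, and the remaining genes were low. With vehicle, the mean TPM was 277 ± 201 for Apoa1, 166 ± 69.6 for Fabp2, 90.4 ± 50.1 for Vil1, 26.2 ± 23.6 for Apoa4 and 8.48 ± 3.31 for Prap1 (SD, n = 3). Below them followed Apob at 4.05 ± 1.44, Fabp1 at 3.28 ± 2.33, Apoc3 at 0.60 ± 0.53, Mttp at 0.52 ± 0.11 and Cdh17 at 0.31 ± 0.23 TPM. Among vehicle libraries only Prap1 and Apob, as neighbours in that order, had TPM ranges that did not overlap. With PEEPA-P5 the order was Fabp2 at 269.5 ± 177, Vil1 at 121 ± 8.63, Apoa1 at 29.7 ± 48.6, Prap1 at 21.8 ± 8.64 and Apob at 5.19 ± 1.69 TPM (SD, n = 3). Apoa4 at 1.58 ± 2.41, Fabp1 at 1.38 ± 0.93, Cdh17 at 0.41 ± 0.29 and Mttp at 0.38 ± 0.09 TPM came next, and Apoc3 was listed at 0 in all PEEPA-P5 libraries. There the neighbouring ranges were separate between Vil1 and Apoa1, between Prap1 and Apob, and between Mttp and Apoc3. Apoa1 had the highest TPM of the 10 genes in vehicle 2 and 3, Fabp2 in vehicle 1 and in PEEPA-P5 1 and 2, and Vil1 in PEEPA-P5 3.

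**Figure D1:**
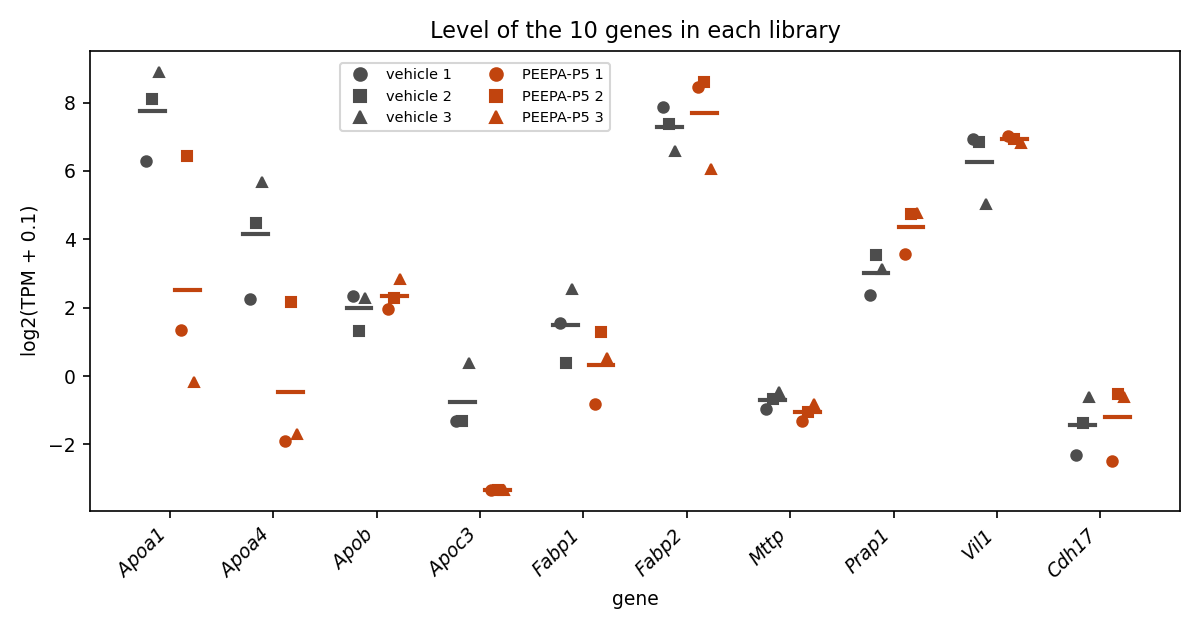
Level of each of the 10 genes in each library as log2(TPM + 0.1), with vehicle libraries in grey and PEEPA-P5 libraries in red, a marker shape for each library number, and a bar at the group mean of the plotted values. Apoa1 and Apoa4 spread over several log2 units among libraries, from 479 to 0.79 TPM for Apoa1, whereas Vil1 stayed between 32.7 and 129 TPM.

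Although the genes are known from enterocytes, the digestive enzymes that define the enterocyte brush border were at or near 0. Sucrase-isomaltase, encoded by Sis, had 0, 3 and 10 counts in vehicle 1, 2 and 3, while PEEPA-P5 1, 2 and 3 had 0, 1 and 5. Of a list of 20 further enterocyte markers, 7 had at most 10 counts in any library: Sis, the lactase gene Lct, the meprin genes Mep1a and Mep1b, the peptide transporter gene Slc15a1, the trehalase gene Treh, and Cyp3a11. The glucose transporter gene Slc2a2 had at most 1 count, and Slc5a1, the sodium-glucose carrier, stood between 0.36 and 1.13 TPM. Others of the list were abundant, among them Rbp2, an intestinal retinol-binding protein, which was at 146 to 279 CPM. Summed over the list, the level was 5448 to 6595 CPM with vehicle and 7052 to 9990 CPM with PEEPA-P5. The 7 genes near 0 and Rbp2 made up little of that sum. It thus mostly reflects other genes of the list and does not measure enterocytes. Of the 13 tested genes of the list 2 were higher and 1 lower at an unadjusted p under 0.05, and 0 passed the adjusted threshold. Over all tested genes, 5.92% were higher and 6.14% lower at that unadjusted level. The genes are called enterocyte genes for where they are known to act, and not because these samples were shown to hold enterocytes.

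**Figure D2:**
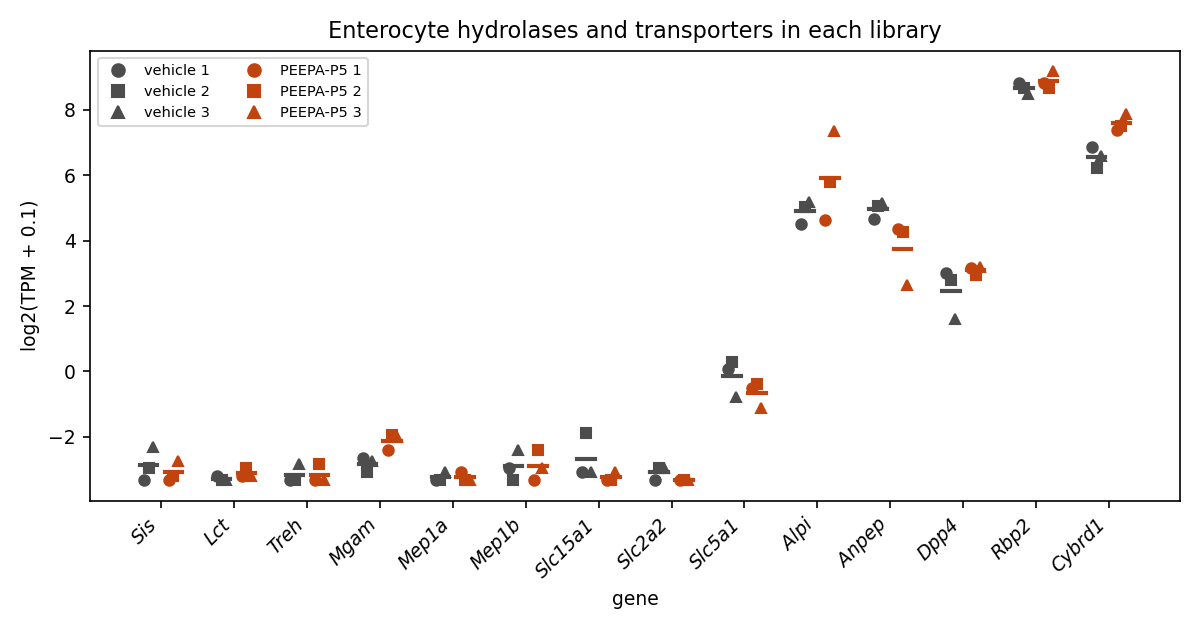
Enterocyte hydrolase and transporter genes in each library as log2(TPM + 0.1), drawn as in the plot of the 10 genes. The genes at the left, Sis to Slc2a2, lie near the bottom of the scale in all libraries, while Alpi, Anpep, Dpp4, Rbp2 and Cybrd1 lie well above it.

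The comparison implied by the design is PEEPA-P5 against vehicle. Of the 10 genes, 8 passed edgeR's expression filter, and Apoc3 and Fabp1 did not. None of the 8 passed an adjusted p under 0.05, the same as for the whole table, in which 0 of 13071 tested genes (0%) passed by edgeR and the smallest adjusted p was 0.412. DESeq2 called 110 genes of the table (0.834% of those with an adjusted p) and 0 of the 10. At an unadjusted p under 0.05, 2 of the 8 stood out, Prap1 on the higher and Apoa4 on the lower side, where 12.1% of all tested genes did. With PEEPA-P5, 5 of the 8 had a positive and 3 a negative fitted difference, against 6454 positive and 6617 negative of 13071 tested genes. The median log2 difference of the 8 was 0.43, against -0.0047 over all tested genes. That median is that of only 8 genes, and without PEEPA-P5 3 it was 0.05. In CPM the groups did not overlap for 3 of the 8, against 20.4% of all tested genes. Of these, 2 (Prap1 and Vil1) were higher with PEEPA-P5, where 9.74% of all tested genes were, and 1 (Apoa4) was lower, where 10.7% were.

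**Figure D3:**
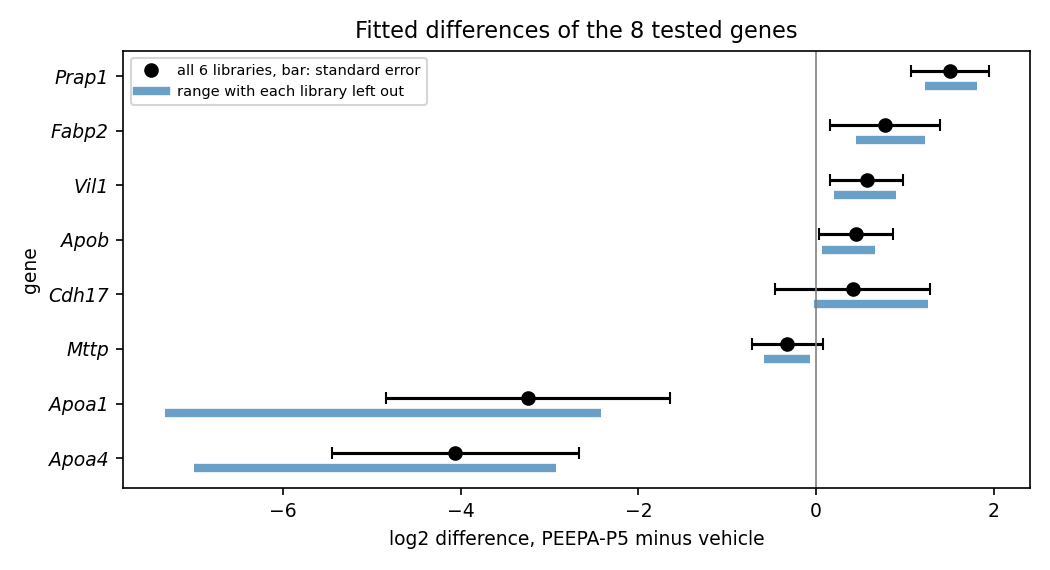
Fitted log2 differences, PEEPA-P5 minus vehicle, of the 8 tested genes by edgeR with standard errors (black), and below each the range of the value with every library left out in turn (blue). Apoa1 and Apoa4 lie far below 0 with wide ranges, Prap1 lies above 0, and the range of Cdh17 crosses 0.

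Apoa1 encodes the main protein of high-density lipoprotein, made by intestine and liver. It stood at 55.8, 176 and 382 CPM in vehicle 1, 2 and 3, and at 1.81, 62.0 and 0.67 CPM in PEEPA-P5 1, 2 and 3. The highest library thus exceeded the lowest, which had 10 counts, 569-fold, and the groups overlapped because PEEPA-P5 2 lay above vehicle 1. The fitted log2 difference was -3.24 (standard error 1.60; edgeR, unadjusted p 0.089, adjusted p 0.458), and the group means differed by an exact two-sided permutation p of 0.2. With the library number as a block it was -4.58 (edgeR, unadjusted p 0.0368, adjusted p 0.364). The difference was -7.33 without PEEPA-P5 2 and -1.86 when both libraries numbered 3 were left out, so its size rests on single libraries.

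Apoa4, an apolipoprotein of chylomicrons that is induced by fat feeding in the small intestine, also had its highest values in vehicle 3 and 2 and values near 0 in PEEPA-P5 1 and 3. It was at 6.50, 27.6 and 79.4 CPM in vehicle 1, 2 and 3 and at 0.24, 6.07 and 0.34 CPM in PEEPA-P5 1, 2 and 3. The groups did not overlap, but vehicle 1 and PEEPA-P5 2 differed by little, with 113 and 104 counts. The log2 difference was -4.06 (standard error 1.39; edgeR, unadjusted p 0.0267, adjusted p 0.412), and the exact two-sided permutation test gave p = 0.1, the smallest that 3 against 3 libraries allow. It was -7.00 without PEEPA-P5 2 and -2.42 without both libraries numbered 3. Per length, Apoa1 stood above Apoa4 in every library, at a TPM ratio of 16.6, 12.3 and 9.31 for the vehicle libraries in order of their numbers, and of 14.3, 19.7 and 3.76 for those with PEEPA-P5. The ratio for PEEPA-P5 1 and 3 rests on 4 and 5 counts of Apoa4.

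Apoc3, whose product restrains lipoprotein lipase, lies between these genes on chromosome 9 in the RefSeq order of GRCm38.p6, with Apoa1 and Apoa4 as its neighbouring coding genes. It had 1, 1 and 5 counts in vehicle 1, 2 and 3, and each PEEPA-P5 library had 0. Over the groups that is 7 counts against 0. With 3 counts over the PEEPA-P5 group taken as the floor, that is 2.2-fold below the 7 vehicle counts. The floor covers counting error of the 0 only, and the 7 counts were taken without theirs, so the fold is not a lower limit. Of the 7 counts 5 came from vehicle 3, and without that library the remaining 2 are below the floor and allow no fold. The exact two-sided permutation test of its CPM gave p = 0.1. At so few counts, how far Apoc3 differed between the groups was not measurable.

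The stretches upstream of the start sites of Apoa1 and Apoa4 are shown because both genes were high in vehicle 2 and 3 and near absent in PEEPA-P5 1 and 3, and those of Fabp2 and Prap1 because these were distributed otherwise. Each is the 250 bases before the RefSeq start in GRCm38.p6, written 5′ to 3′ on the strand of the gene, with capitals for any match to the motifs searched on both strands. One motif was CAAAGNNCA, the core of sites bound by HNF4 factors, and a further one was the TATA box TATAAA. The core bound by estrogen-related receptors was searched as AAGGTCA and a site of GATA factors as AGATAA. RefSeq windows were found for 8 of the 10 genes, all but Apoc3 and Cdh17.
Apoa1 (chr9:46228380-46228629, + strand): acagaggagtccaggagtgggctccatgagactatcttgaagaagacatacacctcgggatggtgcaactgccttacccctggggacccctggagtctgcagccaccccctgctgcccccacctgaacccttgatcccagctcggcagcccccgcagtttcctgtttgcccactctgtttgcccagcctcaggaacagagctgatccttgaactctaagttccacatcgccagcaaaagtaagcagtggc
Apoa4 (chr9:46240594-46240843, + strand): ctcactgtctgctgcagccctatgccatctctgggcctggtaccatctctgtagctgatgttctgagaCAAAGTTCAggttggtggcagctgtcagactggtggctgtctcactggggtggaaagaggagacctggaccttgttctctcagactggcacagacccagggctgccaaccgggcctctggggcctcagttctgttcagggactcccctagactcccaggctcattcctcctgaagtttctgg
Fabp2 (chr3:122894822-122895071, + strand): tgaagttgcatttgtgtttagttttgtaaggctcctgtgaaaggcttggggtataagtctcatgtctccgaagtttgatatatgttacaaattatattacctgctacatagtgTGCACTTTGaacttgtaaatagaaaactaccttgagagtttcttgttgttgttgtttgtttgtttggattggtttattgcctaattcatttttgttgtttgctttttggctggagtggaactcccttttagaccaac
Prap1 (chr7:140093146-140093395, + strand): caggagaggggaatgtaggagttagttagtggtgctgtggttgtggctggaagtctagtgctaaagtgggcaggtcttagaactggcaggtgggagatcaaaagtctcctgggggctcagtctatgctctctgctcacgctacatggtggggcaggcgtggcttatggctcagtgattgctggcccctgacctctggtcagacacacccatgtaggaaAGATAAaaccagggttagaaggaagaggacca
The HNF4-type letters were in the windows of Apoa4, Fabp2 and Apob and are in 5.49% of all 32851 windows of this length. TATAAA was in those of Apob and Fabp1 (12.4% of all windows) and AGATAA in that of Prap1 (9.99%). AAGGTCA was in none of the 8 (4.08%), and the Apoa1 window held none of the 4 motifs. Within the Apoa4 window the match lies 182 to 174 bases before the start, and in the Fabp2 window 137 to 129 bases before it on the opposite strand. A match of letters is a description of sequence only. Only the stated letters were searched, so the lack of a match does not mean the lack of a site. The gene of the factor, Hnf4a, was at 206, 209 and 218 CPM in vehicle 1, 2 and 3 and at 210, 225 and 311 CPM in PEEPA-P5 1, 2 and 3.

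The genes whose log2 CPM followed Apoa1 most closely over the 6 libraries, of 12031 candidates each, were Atp4b, a proton pump subunit of acid-secreting parietal cells (Pearson r 0.999), Pnliprp1, a lipase-related gene (0.999), and Chia1, an acidic chitinase of chief cells (0.998). For Apoa4 they were Rnase1, a secreted ribonuclease (0.999), Kcne2, a potassium channel subunit of parietal cells (0.998), and Slc38a3, an amino acid transporter (0.998). These are the highest values among many genes over only 6 libraries and serve as a description. Atp4b was at 271, 1044 and 2726 CPM in vehicle 1, 2 and 3 and at 4.82, 247 and 1.08 CPM in PEEPA-P5 1, 2 and 3 and thus ordered the libraries as Apoa1 did, except that vehicle 1 lay above PEEPA-P5 2. Summed over the list of 10 parietal markers, the level was 932, 3222 and 7093 CPM in the vehicle libraries and 189.6, 868 and 145 CPM in the PEEPA-P5 libraries. All 10 of these markers were tested and had a negative fitted difference, 8 of them at an unadjusted p under 0.05. None was at 0 in all libraries. For this and the next 2 lists, the share of all tested genes lower at that level is 6.14%. The sum of 5 chief cell markers was 9496 to 89724 CPM with vehicle and 2724 to 10220.5 CPM with PEEPA-P5, and the 5 were lower in the fit, 4 of them at an unadjusted p under 0.05. The 10 exocrine pancreas genes in the table summed to 1094, 4655 and 16521.5 CPM in vehicle 1, 2 and 3 and to 501, 1347 and 309 CPM in PEEPA-P5 1, 2 and 3, the library order of Apoa1. Of the 4 tested among them 3 were lower at an unadjusted p under 0.05, while Prss1, Ctrb1, Cela2a, Cela3b and Pnlip had at most 10 counts in any library. The part of parietal, chief and pancreatic cells in the Apoa1 and Apoa4 values was not tested.

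Among liver and fat markers, albumin, encoded by Alb, had 48, 30 and 46 counts in vehicle 1, 2 and 3 against 17, 21 and 2 with PEEPA-P5, without overlap, and the 13 hepatocyte markers in the table summed to 73.6 to 92.5 CPM with vehicle and 24.2 to 62.7 CPM with PEEPA-P5. Of the 8 tested, 3 were lower and 1 higher at an unadjusted p under 0.05, where 6.14% and 5.92% of all tested genes were. The others include Cps1, Apoh and Hamp, which had at most 10 counts in any library. Apoa1 lay above that sum in vehicle 2 and 3 and below it in the other four libraries. The 8 adipocyte markers in the table summed to 87.1, 121 and 193 CPM in vehicle 1, 2 and 3 and to 62.9, 95.8 and 95.5 CPM in PEEPA-P5 1, 2 and 3. Of 6 tested adipocyte markers 5 were negative in the fit, 2 of them at an unadjusted p under 0.05, while adiponectin, encoded by Adipoq, had at most 1 count. Their part in the Apoa1 and Apoa4 values was not tested.

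**Figure D4:**
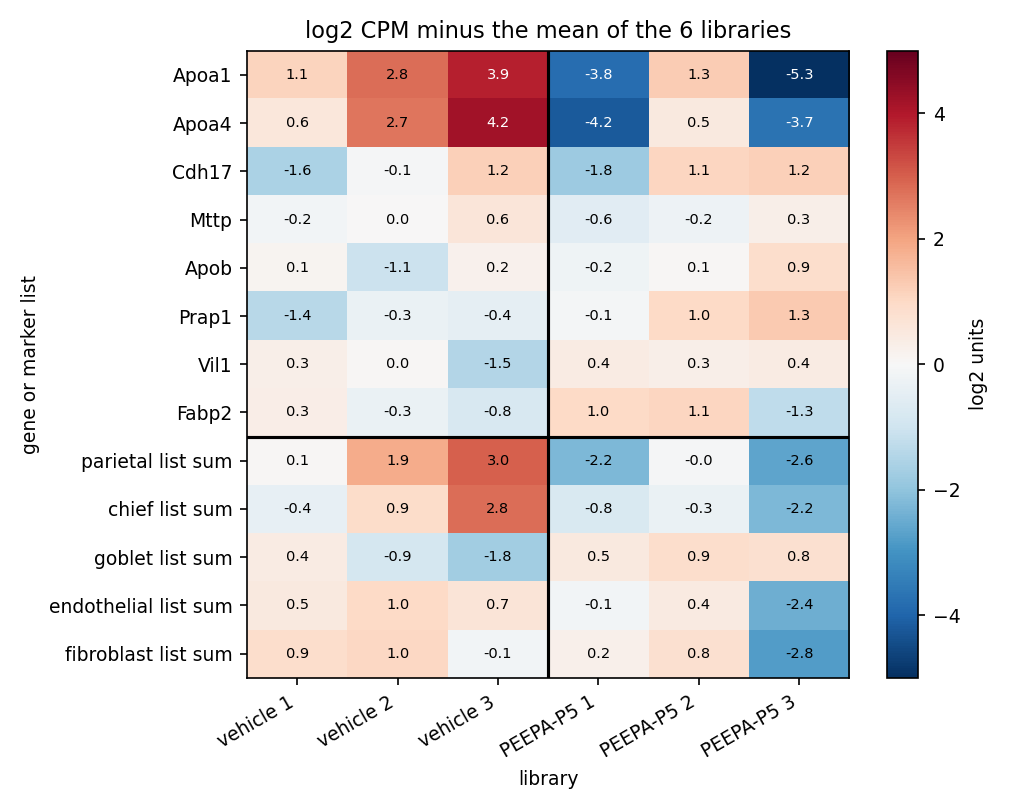
Log2 CPM of the 8 tested genes and of the summed markers of 5 cell types in each library, minus the mean of the 6 libraries (colour and printed values, log2 units; blue low, red high). Apoa1, Apoa4 and the parietal sum are highest in vehicle 3 and lowest in PEEPA-P5 1 and 3. The chief sum is also highest in vehicle 3 and lowest in PEEPA-P5 3 (-2.23). In PEEPA-P5 1 (-0.755), though, it lies close to vehicle 1 (-0.429) and PEEPA-P5 2 (-0.323). Fabp2, Vil1 and Prap1 have other patterns.

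Fabp2, the intestinal fatty acid carrier, had the highest mean TPM of the 10 genes with PEEPA-P5, though its TPM range overlapped that of Vil1. Fabp2 had no such order of libraries. It was at 162, 103 and 73.9 CPM in vehicle 1, 2 and 3 and at 254, 272 and 54.2 CPM in PEEPA-P5 1, 2 and 3. PEEPA-P5 1 and 2 lay above all vehicle libraries and PEEPA-P5 3 below all of them. The log2 difference was 0.78 (standard error 0.62; edgeR, unadjusted p 0.259, adjusted p 0.610; exact two-sided permutation p = 0.4). Without PEEPA-P5 3 it was 1.22 (edgeR, unadjusted p 0.0131, adjusted p 0.556), and without both libraries numbered 3 it was 0.99 (edgeR, unadjusted p 0.00685, adjusted p 0.598). The genes most like it over the 6 libraries were Bbc3 (Pearson r 0.998), Cetn2 (0.99) and Cenpk (0.989).

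Fabp1, the carrier shared by liver and intestine, was far lower than Fabp2. It had 12, 5 and 25 counts in vehicle 1, 2 and 3 against 2, 10 and 6 with PEEPA-P5, and the groups overlapped (exact two-sided permutation p = 0.4 for CPM). Per length, Fabp2 exceeded Fabp1 in every library, by a TPM ratio of 16.5 in vehicle 3 to 751 in PEEPA-P5 1, where Fabp1 had 2 counts.

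Apob and Mttp, which build the lipoprotein particle, did not pass the test in either direction. Apob was at 67.1, 28.7 and 71.5 CPM in vehicle 1, 2 and 3 and at 52.5, 63.9 and 112 CPM in PEEPA-P5 1, 2 and 3. Only PEEPA-P5 3 lay above all vehicle libraries. Its log2 difference was 0.45 (standard error 0.42; edgeR, adjusted p 0.662; exact two-sided permutation p = 0.6), and 0.07 without PEEPA-P5 3. Mttp was at 1.61, 1.83 and 2.75 CPM in vehicle 1, 2 and 3 and at 1.2, 1.52 and 2.22 CPM in PEEPA-P5 1, 2 and 3, with a log2 difference of -0.33 (standard error 0.40; edgeR, adjusted p 0.734; exact two-sided permutation p = 0.4). In the numbered pairs it was lower with PEEPA-P5 in 3 of 3, but the groups overlapped. Apoa1, Apoa4 and Apoc3 were also lower in 3 of 3 pairs, Prap1 and Vil1 were higher in 3 of 3, and the other members were mixed. The share of all genes with such pairs was not counted. Per length, Apob stood at 2.39 to 7.06 TPM and Mttp at 0.30 to 0.62 TPM. Of Mttp's 31-base stretches, 8.13% also occur in transcripts of other genes. The largest number is shared with Trmt10a, which overlaps Mttp on the opposite strand in GENCODE M21. The genes most like Apob were Sprr2a1, Akap10 and Bloc1s4 (Pearson r 0.997, 0.99 and 0.987), and those most like Mttp were Myrf, Ppara and Pitpnm1 (0.997, 0.997 and 0.996). Ppara encodes a nuclear receptor that drives fatty acid oxidation.

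Of the 10 genes, Prap1 had the smallest unadjusted p. It stood at 1.78, 3.72 and 3.46 CPM in vehicle 1, 2 and 3 and at 4.40, 9.52 and 11.6 CPM in PEEPA-P5 1, 2 and 3. Every PEEPA-P5 library lay above every vehicle library, with PEEPA-P5 1 close to vehicle 2 at 73 against 69 counts. The log2 difference was 1.50, or 2.84-fold (standard error 0.44 on the log2 scale; edgeR, unadjusted p 0.0106, adjusted p 0.412), and the exact two-sided permutation p was 0.1, the smallest possible. Its unadjusted p stayed under 0.05 in all 17 alternatives, from 0.001 to 0.0466, and the adjusted p ran from 0.0718 with DESeq2 to 0.782. The most alike genes were Abl2, Rnf223 and Naa15 (Pearson r 0.993, 0.985 and 0.983).

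Of Prap1's 31-base stretches, 22.4% also occur in transcripts of other genes. The largest number is shared with Fuom, a fucose metabolism gene that overlaps the end of Prap1 on the opposite strand in GENCODE M21. Fuom was at 15.9, 13.8 and 14.6 CPM in vehicle 1, 2 and 3 and at 22.0, 18.2 and 20.1 CPM in PEEPA-P5 1, 2 and 3, a log2 difference of 0.44. No source used here says whether the library kit marked the strand, so reads of the shared stretch cannot be told apart and Prap1 is uncertain to that extent. Likewise 64.5% of Apoa4's stretches occur in transcripts of other genes, the largest number in the gene model Gm47528 on the opposite strand. Markers of other epithelial cells were also at other levels in the PEEPA-P5 libraries, where Prap1 was high. For the counts that follow, 5.92% of all tested genes were higher at an unadjusted p under 0.05 by edgeR. The 10 goblet cell markers summed to 1926 to 8694 CPM with vehicle and 9121 to 12113 CPM with PEEPA-P5, with 7 of 8 tested positive in the fit, 1 of them at an unadjusted p under 0.05, and a median log2 difference of 1.37. The 8 pit cell markers summed to 125804 to 149332 CPM with vehicle and 160855 to 198913 CPM with PEEPA-P5, with 8 of 8 higher in the fit and 5 at an unadjusted p under 0.05. The 10 markers of squamous forestomach in the table summed to 360 to 375 CPM against 470 to 755 CPM, with 6 of 6 tested markers higher at an unadjusted p under 0.05. The other 4 were near absent: Krt5 and Krt14, the basal keratins, had at most 1 count, and Ivl and Lor at most 10 in any library. Their part in the Prap1 values was not tested.

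Villin, the product of Vil1, was at 346, 291 and 102 CPM in vehicle 1, 2 and 3 and at 378, 348 and 372 CPM in PEEPA-P5 1, 2 and 3. In CPM the PEEPA-P5 libraries lay above all vehicle libraries, but PEEPA-P5 2 exceeded vehicle 1 by little, and vehicle 3 alone was low. In TPM the groups overlapped, at 123, 115 and 32.7 against 129, 123 and 112 TPM, so their separation depends on the scaling. The log2 difference was 0.57 (standard error 0.41; edgeR, adjusted p 0.571), and the exact two-sided permutation p was 0.1 for CPM and 0.5 for TPM. Without vehicle 3 the difference was 0.20. In vehicle 3, goblet cell markers were also lowest, with a sum of 1926 CPM against 3562 to 12113 CPM in the other five libraries, and the chief cell sum was highest. The part of these cells in the Vil1 value was not tested. Of the other members, Cdh17 had 5, 15 and 30 counts in vehicle 1, 2 and 3 against 4, 31 and 29 with PEEPA-P5, low in the libraries numbered 1 of both groups. Its log2 difference was 0.41 (standard error 0.87; edgeR, adjusted p 0.852; exact two-sided permutation p = 0.9) and -0.03 without vehicle 1. The genes most like Vil1 were Zfp772, Rps6 and Cpne1 (Pearson r 0.998, 0.995 and 0.989). Those most like Cdh17 were Faap24 (0.989), Akp3, an intestinal alkaline phosphatase gene (0.988), and Eepd1 (0.987).

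The other genes of the pathway were taken from 7 lists, and none of their genes passed the adjusted threshold of edgeR. At an unadjusted p under 0.05, 5.92% of all tested genes were higher and 6.14% lower. Of 19 tested genes for uptake and activation of fatty acids and sterols, 1 was higher and 4 were lower at that level, with a median log2 difference of -0.19 against -0.0047 over all genes. Cd36, a fatty acid receptor at the cell surface, was at 6.56, 27.5 and 46.0 CPM in vehicle 1, 2 and 3 and at 1.26, 5.08 and 0.54 CPM in PEEPA-P5 1, 2 and 3, a library order shared with Apoa1 but for the close pair of vehicle 1 and PEEPA-P5 2. Got2, a mitochondrial aminotransferase also held to bind fatty acids, had a log2 difference of -0.38, the acyl-CoA synthetase gene Acsl3 one of 0.72 and the acyl-CoA binding gene Dbi one of 0.31. Acsl3 was at 146 ± 23.4 CPM with vehicle and 240 ± 86.5 CPM with PEEPA-P5 (SD, n = 3 each), and its difference was 0.39 without PEEPA-P5 3. That of Dbi was 0.47 without vehicle 1. A further carrier, Fabp3, named after its values were seen, was at 9.95, 29.0 and 80.5 CPM in vehicle 1, 2 and 3 and at 1.08, 9.52 and 0.40 CPM in PEEPA-P5 1, 2 and 3.

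Among 21 tested genes of triglyceride synthesis and lipid droplets, 2 were higher and 1 was lower at an unadjusted p under 0.05, and the median log2 difference was 0.06. Dgat1, which makes triglyceride from diglyceride, was at 91.9 ± 21.8 CPM with vehicle and 138 ± 21.0 CPM with PEEPA-P5, and Mogat2, which starts intestinal re-esterification, at 11.5 ± 3.48 and 20.4 ± 5.62 CPM (SD, n = 3 each). Agpat3 and Gpam, acyltransferases of glycerolipid synthesis, had log2 differences of -0.49 and -1.05, which were -0.31 and -0.43 without vehicle 3. For lipoprotein assembly and other apolipoproteins, 1 of 17 was higher and 1 lower, with a median of 0.08. Creb3l3, a membrane-bound transcription factor that drives apolipoprotein genes, was at 4.83, 6.20 and 5.12 CPM in vehicle 1, 2 and 3 and at 5.54, 9.87 and 12.8 CPM in PEEPA-P5 1, 2 and 3. Sar1b, the GTPase of chylomicron export, had a log2 difference of 0.22, Mia2, an export receptor, one of -0.28, and Pltp, the phospholipid transfer protein, one of -1.46. Without PEEPA-P5 3 the difference of Pltp was -0.92 and that of Creb3l3 was 0.52, against 0.80 with it.

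Brush border structure had 3 of 23 tested genes higher and 1 lower at an unadjusted p under 0.05. The median log2 difference was 0.20. In the fit 18 of the 23 were positive, as were 6454 of all 13071 tested genes. The list was not tested as a set. Anks4b, an adaptor of the microvillar tip complex, was at 34.2, 26.3 and 19.2 CPM in vehicle 1, 2 and 3 and at 38.9, 40.8 and 57.4 CPM in PEEPA-P5 1, 2 and 3, so the groups were separate (edgeR adjusted p 0.412). Eps8, an actin-capping protein of microvilli, was at 60.2 ± 8.07 and 81.0 ± 9.75 CPM (SD, n = 3 each). Cobl, an actin nucleator, was at 5.81, 19.4 and 47.1 CPM in vehicle 1, 2 and 3 and at 3.19, 7.07 and 1.34 CPM in PEEPA-P5 1, 2 and 3, and Myo7b, a microvillar myosin, had a log2 difference of -1.51. Without vehicle 3 that of Cobl moved from -2.63 to -1.70 and that of Myo7b to 0.22.

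Of the brush border hydrolases 9 of 17 genes in the table were tested, with 0 higher and 2 lower at an unadjusted p under 0.05. Anpep, aminopeptidase N, was at 87.4, 103 and 138 CPM in vehicle 1, 2 and 3 and at 72.7, 66.9 and 25.3 CPM in PEEPA-P5 1, 2 and 3. Ace had a log2 difference of -1.09, Dpp4 one of 0.66 and Mgam one of 1.45 (edgeR, unadjusted p 0.0673 for Mgam). Mgam was near the bottom of the scale in all libraries, and its difference was 0.12 on log2(TPM + 1). Its unadjusted p was under 0.05 in 0 of 16 alternatives. The difference of Anpep moved from -0.99 to -0.65 without PEEPA-P5 3, and that of Dpp4 to 0.38 without vehicle 3. Alpi, the intestinal alkaline phosphatase, named after its values were seen, was at 46.2, 59.5 and 82.2 CPM in vehicle 1, 2 and 3 and at 52.4, 113 and 394 CPM in PEEPA-P5 1, 2 and 3, with PEEPA-P5 3 far above the rest. Among 14 tested transporters, 2 were higher and 2 lower. Cybrd1, the duodenal ferric reductase, was at 569.6, 324 and 518 CPM in vehicle 1, 2 and 3 and at 846, 894 and 1340 CPM in PEEPA-P5 1, 2 and 3, a log2 difference of 1.13 (standard error 0.26; edgeR adjusted p 0.412). DESeq2 gave Cybrd1 an adjusted p of 0.00793. The drug exporter gene Abcb1a had a log2 difference of 1.02, the fructose carrier gene Slc2a5 one of -0.97, and Slc7a8, an amino acid transporter, one of -3.61, which was -5.47 without PEEPA-P5 2, -2.59 without vehicle 3 and -2.07 with both libraries numbered 3 left out.

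**Figure D5:**
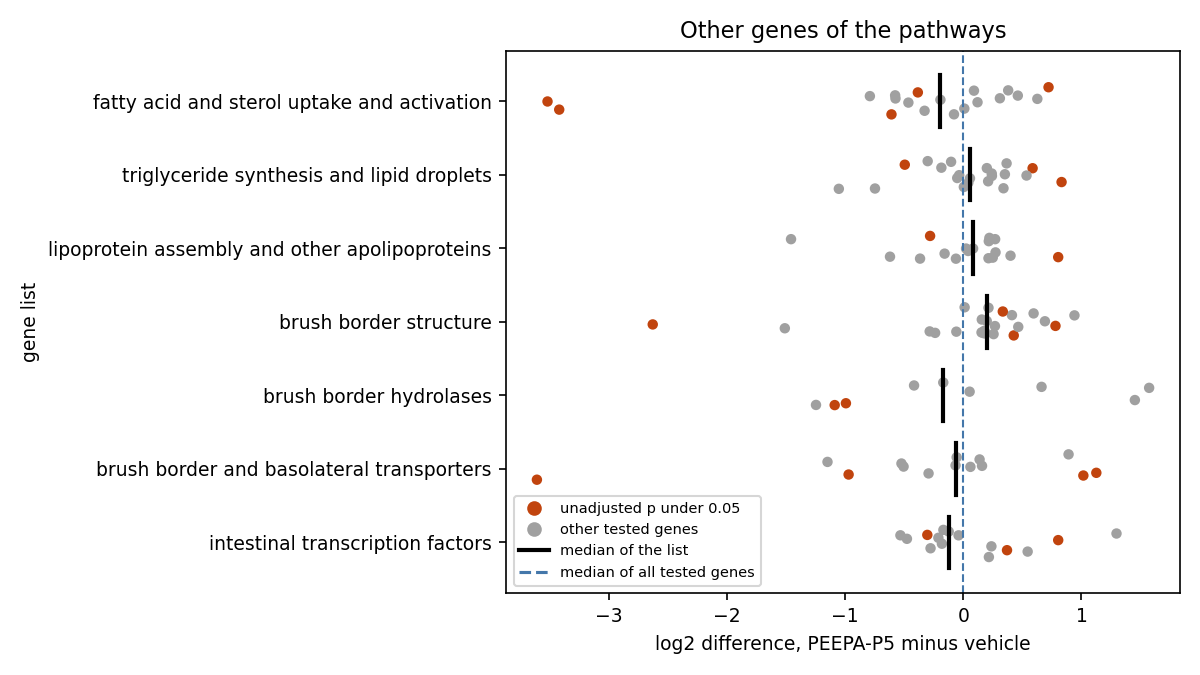
Fitted log2 differences, PEEPA-P5 minus vehicle, of the tested genes in the 7 pathway lists, 1 point per gene, red at an unadjusted p under 0.05. Black bars mark the median of each list, from -0.19 for fatty acid and sterol uptake to 0.20 for brush border structure, and the dashed line marks the median of all tested genes.

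Of 15 tested intestinal transcription factors, 2 were higher and 1 was lower at an unadjusted p under 0.05, with a median log2 difference of -0.12. Klf4, which acts in surface and goblet cell maturation, had a log2 difference of 0.37, which was 0.22 without PEEPA-P5 3, and Gata6 had one of -0.30. Cdx2, the master regulator of intestinal identity, named after its values were seen, was at 0.58, 1.94 and 1.35 CPM in vehicle 1, 2 and 3 and at 0.66, 2.92 and 5.98 CPM in PEEPA-P5 1, 2 and 3, low in the libraries numbered 1 as Cdh17 was. Its relative Cdx1 reached no more than 2 counts per library.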

How the data were processed

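RNA-seq of 6 antrum epithelium libraries was analysed. Bowtie2 2.2.5, RSEM 1.2.12 and the build mm9 are named in the submitters' processing notes, without roles or settings. The table deposited by the authors holds, per the file headers, expected counts next to FPKM and TPM values for each gene in each library. The deposited expected counts are not normalized, and 9.82% were not whole and were rounded before testing. Deposited FPKM and group means were not used. The 10 genes and all lists were chosen with earlier results of these data known.

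The counts were tested with edgeR 4.0.16 (R 4.3.3, robust quasi-likelihood, TMM factors, expression filter leaving 13071 genes, group as the only term) and Benjamini-Hochberg adjustment over all tested genes at 0.05. The code was checked on counts simulated with the same scatter for every gene. That check covers the code only and not how the test behaves at the scatter of these libraries. Standard errors are the log2 difference divided by the root of the F statistic. Single genes were compared by exact permutation of CPM (scipy 1.17.1). Most alike genes are the 3 with the highest Pearson r of log2 CPM (prior count 2) at a mean of at least 1 CPM, without predicted genes. From each of 7 pathway lists, up to 2 genes per direction with the smallest unadjusted p and at least 1 CPM in the higher group were named; a gene that the rule also picked is not reported here. Of the 13 cell type lists, those for Paneth cells and leukocytes are given only in the closing section. Shared 31-base stretches were counted on both strands of GENCODE M21 transcripts. No 2 libraries agreed within sampling noise (chi-square per degree of freedom at least 13.3). Reads without molecular identifiers are not independent molecules, so the floor of 3 counts used for Apoc3 covers counting error of the 0 only.

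Each group's libraries carry numbers 1 to 3 that the labels leave unexplained. Same-numbered libraries deviated together from their group means (correlations 0.237, 0.346 and 0.235), against -0.349 to 0.176 for libraries of unlike number. The main edgeR test and the permutation test did not pair the libraries. The numbers served as pairs only in the replicate block and in the numbered pairs given for Mttp and the other members. That use rests on the values alone. Alternatives were DESeq2 1.42.0, limma-voom and limma-trend (limma 3.58.1), other scaling factors and filters, the replicate block and each library left out, and, added after seeing the data, both libraries numbered 3 left out.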

Additional observations from a re-analysis of the deposited data

How the results depend on the processing

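Over 17 alternatives, 0 of the 8 tested members reached an adjusted p under 0.05, and each kept its direction except Cdh17, whose log2 difference was -0.027 and whose difference of mean CPM was -0.0319 without vehicle 1 (the latter ran up to 0.874 with other libraries left out). Myo7b, with a main value of -1.51, was at 0.223 without vehicle 3 and 0.105 without both libraries numbered 3. With every library left out in turn, Apoa1 ran from -7.33 to -2.42, Apoa4 from -7.00 to -2.92, Fabp2 from 0.45 to 1.22, Vil1 from 0.20 to 0.90, Apob from 0.07 to 0.66, Mttp from -0.59 to -0.07, Cdh17 from -0.03 to 1.26, Prap1 from 1.22 to 1.82 and Myo7b from -2.06 to 0.22. The median over members ran from 0.053 to 0.531 in the same way, and was 0.053 with DESeq2 and 0.057 without a count filter, which both include Apoc3 and Fabp1. The number of genes called over the table was 0 with edgeR and 110 with DESeq2, and 0 to 1 with edgeR and each library left out. Genes at an unadjusted p under 0.05 numbered 1576, with 717 to 2070 when a library was left out: leaving out vehicle 2 gave 717, vehicle 3 gave 759 and PEEPA-P5 1 gave 1008. Of these 1576, 49.1% were higher, against 35.9% with upper quartile factors, 23.6% without scaling factors, 20.5% with limma-trend on log2(TPM + 1) and 21.7% on log2(TPM + 0.1). The replicate block moved the count of genes at an unadjusted p under 0.05 to 1788 and that of the members from 2 to 3, the third being Apoa1, and called 0 genes. The causes were not tested. Counts of 10 or fewer limit what can be said of Apoc3, and of Fabp1 and Cdh17 in single libraries. The same limit holds for Apoa4 in PEEPA-P5 1 and 3, at 4 and 5 counts, and for Apoa1 in PEEPA-P5 3, at 10 counts.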

Other observations

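The 10 leukocyte markers summed to 22.4 to 36.4 CPM with vehicle and 6.92 to 34.2 CPM with PEEPA-P5, and the 3 Paneth cell markers in the table to 1.22 to 4.08 CPM and 1.14 to 2.80 CPM.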
